A study of Zea mays with 4 samples.

Results

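Maize genes with nearly the same hybrid to B73 ratio as the middle of the measured transcriptome are described here, in whole maize (Zea mays) seedlings. They were chosen from the measured ratios. An ID that begins with Zm00001d, the gene names of the version 4 annotation of the inbred line B73, was eligible when it had 10 or more counts in all 4 libraries and was not among the 50 most abundant IDs of that kind. For each library code, RPI10 or RPI11, the log2 ratio of CPM (a count divided by its library total, times 1000000) of the hybrid to B73 was taken and its median over all IDs with 10 or more counts in all 4 libraries (970 IDs) was subtracted. An ID was kept when this centred log2 ratio lay from -0.4 to 0.4 in both codes. The rule kept 83 IDs of 829 eligible IDs, and the table held 22525 IDs in all.

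The hybrid libraries (codes RPI10 and RPI11) came from F1 seedlings of A188 crossed with B73, named HiII in the labels, and the B73 libraries (the same codes) came from the inbred B73. Whole V3 seedlings with their roots were ground, after growth under glass with days of 14 h and nights of 10 h. No library of the A188 parent was analysed here. Library totals were 1341976 (RPI10) and 883812 (RPI11) counts in the hybrid, against 275271 (RPI10) and 403858 (RPI11) counts in B73. What the codes mark, separate plants or separate preparations, is not given, so the spread between the libraries of a genotype may be technical. Of the shoot markers listed, CAB1 (a chlorophyll a/b-binding protein of the light-harvesting antenna), FDX2 (a leaf ferredoxin) and RCA1 (Rubisco activase) had 10 or more counts in every library. All were above the median hybrid to B73 ratio, with centred log2 ratios of 2.07 (RPI10) and 1.66 (RPI11) for CAB1, 2.95 and 2.39 for FDX2 and 0.13 and 0.86 for RCA1, and the part of such genes in the near-median set was not tested. FDX3, a ferredoxin of non-photosynthetic tissue and the only root marker found, had 1 (RPI10) and 2 (RPI11) counts in the hybrid and 2 in each B73 library. In whole seedlings, fewer cells of a type and less RNA per cell cannot be told apart.

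An F1 plant carries a copy of each nuclear gene from either parent, and the summed output of both copies sets its transcript level. A gene can match one parent because both alleles are expressed alike, or because factors acting on both copies compensate for a difference between them. Without the other parent, a level close to B73 does not show whether the parents differ or whether the hybrid lies midway between them. Genes with steady transcript levels across plants are also used in plant biology as references to which other genes are scaled. The files do not pair the Zm00001d IDs with gene names, and 0 of the 83 IDs matched the RefSeq genes of Zm-B73-REFERENCE-NAM-5.0, so the genes are given by ID and no role is stated for them.

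The measured levels of the genotypes were close only relative to the median, and not per counted transcript. The medians that were subtracted were -0.61 in RPI10 and -0.50 in RPI11, which are hybrid to B73 ratios of CPM of 0.655 and 0.709. All 83 IDs therefore had a lower CPM in the hybrid than in B73 in both codes, with median ratios of 0.656 in RPI10 and 0.736 in RPI11. For 53 of the 83, both hybrid libraries lay below both B73 libraries on that scale, as they did for 470 of the 829 eligible IDs (56.7%) and for 1795 of the 3282 IDs tested with edgeR (54.7%). The rule fixes the direction of this count for the 83 IDs, so nothing is read from it. The 83 IDs together took 0.456% of the hybrid RPI10 counts (95% exact binomial interval 0.445 to 0.468) and 0.480% of the hybrid RPI11 counts (0.466 to 0.495). They took 0.708% of the B73 RPI10 counts (0.677 to 0.740) and 0.676% of the B73 RPI11 counts (0.651 to 0.702). The hybrid libraries were the lower ones in this share, and the intervals cover counting error only. The label of equal expression thus refers only to the measured ratios on the centred scale, and the IDs are called near-median IDs below.

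Where the middle lies depended on which IDs set it. With a minimum of 20 counts in every library (425 IDs) the median log2 ratio was -0.10 in RPI10 and 0.04 in RPI11, and with a minimum of 50 counts (174 IDs) it was 0.34 and 0.41. With all libraries drawn at random to 275271 counts and a minimum of 10 counts (492 IDs) it was 0.30 in RPI10 and 0.29 in RPI11. The same 10 counts stood for 7.45 CPM (RPI10) and 11.3 CPM (RPI11) in the hybrid libraries, against 36.3 CPM (RPI10) and 24.8 CPM (RPI11) in the B73 libraries. Over the 829 eligible IDs alone the median was -0.76 in RPI10 and -0.62 in RPI11, whereas over the 92 IDs of other kinds, among them plastid genes, it was -0.06 and 0.18. Which IDs counted as near-median changed with the middle. Scaling by the trimmed mean of M-values (TMM, which put the middle at -0.78 and -0.67) gave 88 IDs, of which 49 were among the 83. Library totals with no centring gave 78 IDs, of which 11 were among the 83. A single ID, Zm00001d012748, lay in the band under the median, TMM and library totals. It was picked out after its values were seen, and it had 37 (RPI10) and 26 (RPI11) counts in the hybrid, against 10 (RPI10) and 15 (RPI11) counts in B73.

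**Figure D1:**
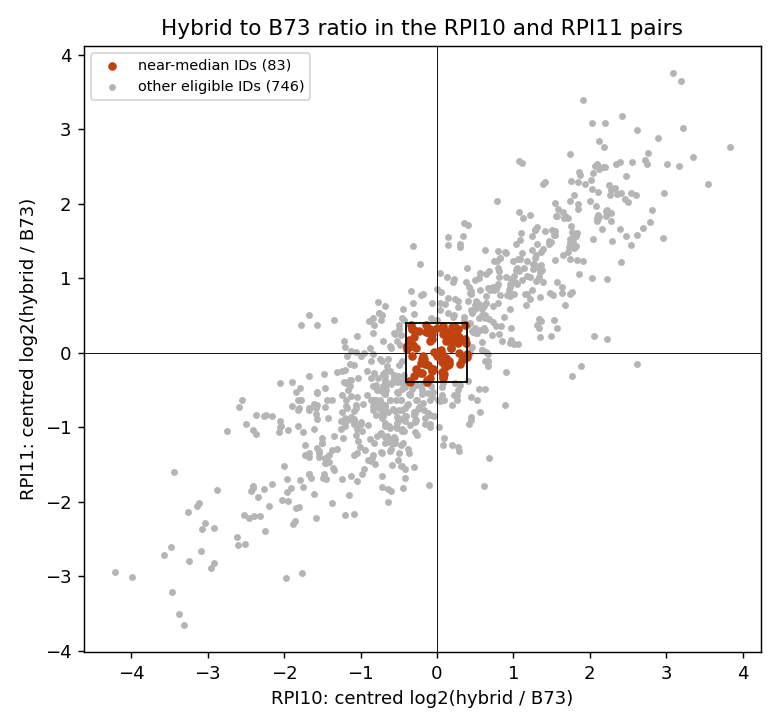
Each point is 1 of the 829 eligible IDs, with its centred log2 hybrid to B73 ratio in RPI10 on the horizontal axis and in RPI11 on the vertical axis. The 83 near-median IDs fill the square from -0.4 to 0.4, and the points around them form an elongated cloud in which the square is not set apart.

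The near-median IDs were of moderate abundance, and a few stood above the rest. The mean CPM over the 4 libraries ran from 24.2 to 696, with a median of 51.9, and 12 IDs were above 100 CPM. CEL-Seq2 reads transcripts near their 3′ end, so CPM is not divided by gene length. Zm00001d015138 was the most abundant, with 469 (RPI10) and 490 (RPI11) CPM in the hybrid, against 923 (RPI10) and 904 (RPI11) CPM in B73. The libraries of a genotype were close to each other and the genotypes did not overlap. Its centred log2 ratios were -0.37 in RPI10 and -0.39 in RPI11, near the lower edge of the band.

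Zm00001d026501 followed with 300.3 (RPI10) and 334 (RPI11) CPM in the hybrid, against 385 (RPI10) and 381 (RPI11) CPM in B73. Its centred ratios lay on the upper side, at 0.25 in RPI10 and 0.31 in RPI11. These most abundant members thus lay towards opposite edges of the band, and together they held 17.5% of all counts of the 83 IDs. Zm00001d053838 had 130.4 (RPI10) and 156 (RPI11) CPM in the hybrid, against 185 (RPI10) and 253 (RPI11) CPM in B73. Zm00001d038146 had 138 (RPI10) and 123 (RPI11) CPM in the hybrid, against 199.8 (RPI10) and 136 (RPI11) CPM in B73. The hybrid libraries lay below the B73 libraries for Zm00001d053838, while for Zm00001d038146 the genotypes overlapped, since hybrid RPI10 was just above B73 RPI11. Zm00001d026439 had 117 (RPI10) and 75.8 (RPI11) CPM in the hybrid, against 171 (RPI10) and 116 (RPI11) CPM in B73. Zm00001d048165 had 82.0 (RPI10) and 119.9 (RPI11) CPM in the hybrid, against 134 (RPI10) and 141 (RPI11) CPM in B73. In the first of this pair the genotypes overlapped and RPI11 was the lower code in both. In the second the hybrid libraries lay below the B73 libraries and RPI11 was the higher code in both.

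**Figure D2:**
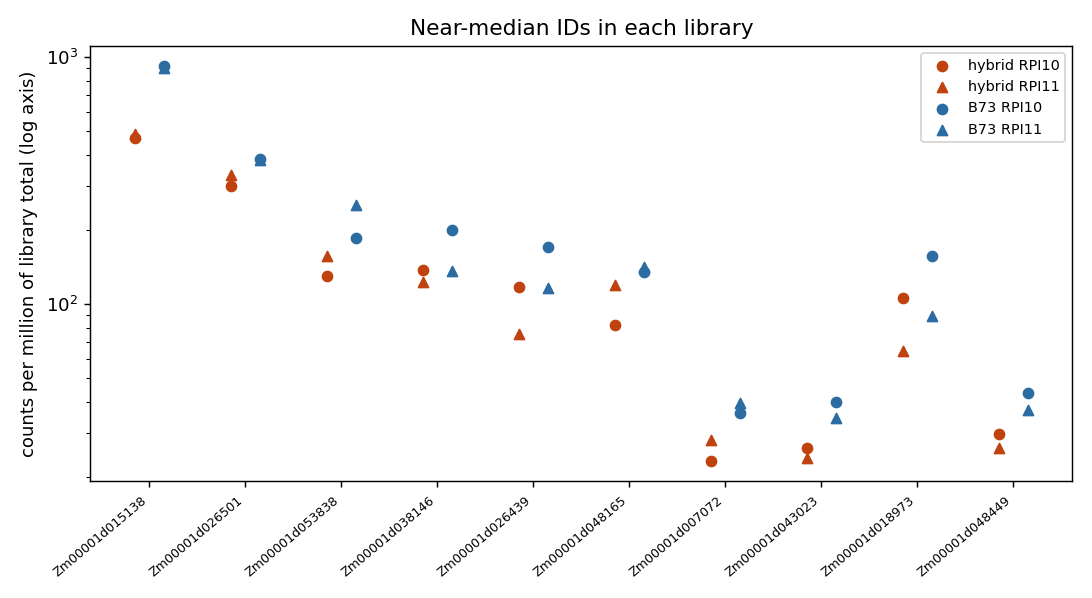
CPM of the library total on a log axis for the 6 most abundant near-median IDs and, to their right, the 4 IDs with the smallest ratios, 1 point per library. Within each code the hybrid point lies below its B73 point for every ID shown, while Zm00001d026439 and Zm00001d018973 differ as much between codes as between genotypes.

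The IDs nearest to a centred ratio of 0 were mostly thinly counted. Zm00001d007072 had ratios of -0.04 in RPI10 and 0.01 in RPI11, from 31 (RPI10) and 25 (RPI11) counts in the hybrid and 10 (RPI10) and 16 (RPI11) counts in B73. Zm00001d043023 had 35 (RPI10) and 21 (RPI11) counts in the hybrid and 11 (RPI10) and 14 (RPI11) counts in B73. Zm00001d048449 had 40 (RPI10) and 23 (RPI11) counts in the hybrid and 12 (RPI10) and 15 (RPI11) counts in B73. The exception was Zm00001d018973, with 142 (RPI10) and 57 (RPI11) counts in the hybrid and 43 (RPI10) and 36 (RPI11) counts in B73, and ratios of 0.05 and 0.03. The least abundant IDs were Zm00001d041290, Zm00001d000682 and Zm00001d024425, each with 10 counts in B73 RPI10 and with 26, 26 and 25 counts in hybrid RPI10.

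Values just inside and just outside the band were nearly the same. Zm00001d049543 was kept at -0.40 in RPI10 and 0.05 in RPI11, and Zm00001d037875 at -0.14 in RPI10 and -0.40 in RPI11. Zm00001d050944 fell just outside at 0.40 in RPI10 and -0.38 in RPI11, and Zm00001d052282 at -0.40 in RPI10 and 0.08 in RPI11. The ratio of Zm00001d050944 rests on 59 counts in the hybrid and 14 in B73 with RPI10, so a single B73 count more would have placed it inside.

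Counting error was about as wide as the band. The standard error of a log2 ratio from counting alone had a median of 0.40 in RPI10 and 0.39 in RPI11, and it exceeded 0.4 for 43 IDs in RPI10 and 38 IDs in RPI11. No ID had a 95% exact binomial interval that lay wholly inside the band in either code. The interval stayed within a 2-fold difference either way (centred log2 ratio of -1 to 1) in both codes for 21 of 83 IDs, and 18 of these were among the 20 most abundant. It reached a centred log2 ratio of -1 or lower for 20 IDs and of 1 or higher for 30 IDs in RPI10, with 19 and 34 IDs in RPI11. For the other 62 IDs, a 2-fold difference from the middle was within counting error in at least 1 code.

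With the most counts the picture was finer. The interval of Zm00001d015138 ran from -0.58 to -0.15 in RPI10 and from -0.59 to -0.18 in RPI11, below 0 in both codes. That of Zm00001d026501 ran from -0.06 to 0.57 in RPI10 and from 0.02 to 0.60 in RPI11. No other ID had an interval that left out 0 in either code. The ratio lay above 0 in both codes for 24 IDs, below 0 in both for 20 and on opposite sides for 39, and 21 IDs were within 0.2 of 0 in both codes.

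In a fit across all IDs, the near-median IDs lay slightly above the TMM middle, where the rule's medians placed them. The edgeR quasi-likelihood test compared the hybrid with B73 over 3282 IDs and called 50.6% of them at a Benjamini-Hochberg adjusted p under 0.05. Of the 83 near-median IDs, 0 were called, 0 had an unadjusted p under 0.05, and DESeq2 also called 0 of 83. The rule chose them by this contrast, so nothing is read from these counts. Their fitted log2 fold change of hybrid over B73 had a median of 0.18 and ran from -0.21 to 0.54. The median was -0.04 over all 3282 IDs and 0.12 over the 970 IDs with 10 or more counts in every library. The medians that the rule subtracted (-0.61 in RPI10 and -0.50 in RPI11) lie above the TMM middle (-0.78 and -0.67). The choice of centres thus sets this offset, and nothing is read from it. Scaled by library totals alone, the median of the 83 IDs was -0.54, which the rule's medians also set, beside -0.76 for all IDs. In that scaling the fitted log2 fold change of Zm00001d015138 was -0.93, given as a description.

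The near-median band was not the fullest among the eligible IDs. Bands of the same width, set side by side, were counted with both codes required inside. The band from -1.2 to -0.4 held 106 IDs (12.8% of 829), the band of the near-median IDs held 83 (10.0%) and the band from 0.4 to 1.2 held 67 (8.08%). Farther out, 34 IDs lay from -2 to -1.2 and 45 from 1.2 to 2. Bands of this width centred on -1 and on 1, 2-fold below and 2-fold above the middle ratio, held 81 and 72 IDs. The ratios spread widely: the middle 50% of eligible IDs ran from -0.83 to 0.82 in RPI10 and from -0.86 to 0.84 in RPI11, and 372 of 829 (44.9%) were within 2-fold of the middle in both codes. These counts describe the contrast that the rule used and carry no test.

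**Figure D3:**
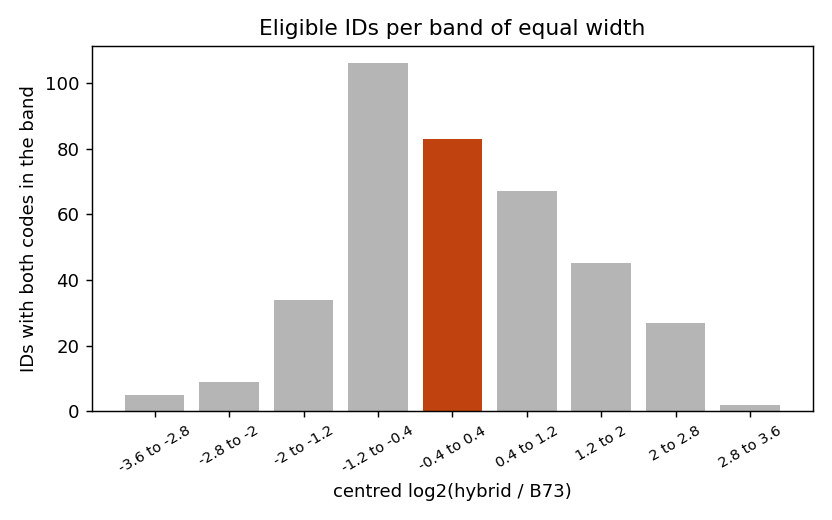
Number of eligible IDs with both codes inside each band of centred log2 hybrid to B73 ratio, in bands of equal width, with the near-median band in red. The band from -1.2 to -0.4 holds 106 IDs, more than the 83 of the near-median band.

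Whether an ID that was near the median in one pair of libraries was near it in the other could be examined, since the RPI10 pair and the RPI11 pair share no library. Of 184 eligible IDs inside the band in RPI10, 83 were also inside in RPI11, which is 45.1% (95% exact binomial interval 37.8 to 52.6), beside 23.2% of all 829 eligible IDs inside in RPI11. Of 192 IDs inside in RPI11, 83 were inside in RPI10, which is 43.2% (36.1 to 50.6), beside 22.2% of all. Most IDs picked in one code thus lay outside the band in the other, 101 picked in RPI10 and 109 picked in RPI11. Of all 184 IDs picked in RPI10, the 83 inside the band included, 160 (86.96%) were within 2-fold of the middle in RPI11. Beside this, 486 of all 829 eligible IDs (58.6%) were within 2-fold in RPI11. The middle 50% of the 184 IDs ran from -0.56 to 0.32 in RPI11. IDs are not independent replicates, so the intervals cover the counting of IDs only.

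The near-median IDs were not spread evenly over levels. By the geometric mean CPM of the 4 libraries, the 829 eligible IDs were ranked and parted into 4 classes of near-equal size. The lowest class (17.4 to 34.3 CPM) held 14 near-median IDs of 208, the next (34.3 to 52.4 CPM) 35 of 207, the next (52.5 to 95.8 CPM) 24 of 207 and the highest (95.8 to 759 CPM) 10 of 207. IDs in the band centred on -1 were most frequent in the lowest class, with 41, 19, 13 and 8 IDs from low to high. Those in the band centred on 1 ran the other way, with 0, 10, 22 and 40. The median geometric mean was 50.3 CPM for the near-median IDs, between 34.2 CPM for the band centred on -1 and 111 CPM for the band centred on 1. The floor of 10 counts lay at 7.45 CPM in hybrid RPI10 and at 36.3 CPM in B73 RPI10, so at the lowest levels only IDs with a low hybrid to B73 ratio could be eligible. The counts of the lowest class are thus limited by this floor, and nothing is read from them. The part of the floor in the ordering of the bands in the other classes was not tested.

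**Figure D4:**
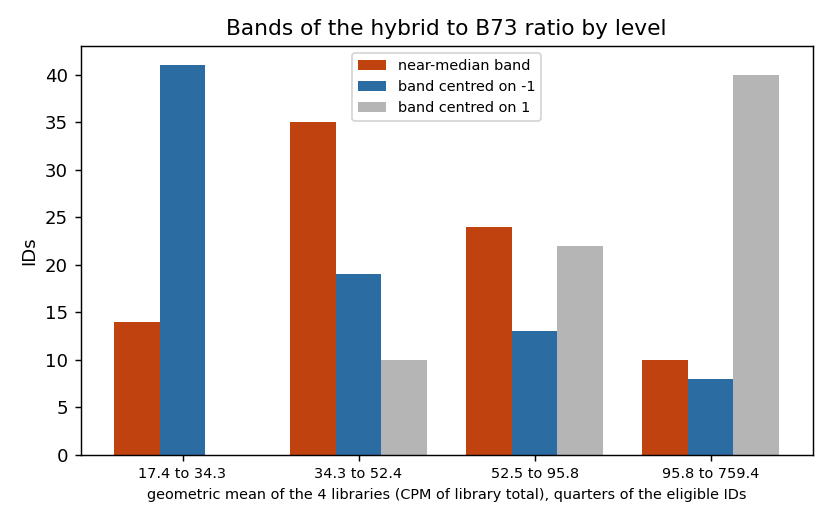
Number of eligible IDs in each of 4 level classes (geometric mean CPM, low to high). Bars show the near-median band, the band around a centred log2 ratio of -1 and the band around 1. The near-median IDs peak at 35 in the class from 34.3 to 52.4 CPM, between the other bands.

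The ratio band did not use the difference between the codes. Few IDs were called by this difference inside or outside the near-median set. The floor of 10 counts does limit it for thinly counted IDs, and the 3282 IDs tested did not have to pass that floor. The smallest count was from 10 to 12 for 20 of the 83 near-median IDs. With genotype as a term, the edgeR quasi-likelihood test called 108 of 3282 IDs (3.29%) between RPI11 and RPI10, and 2 of the 83 near-median IDs (2.41%), which went in opposite directions. Of the 746 eligible IDs outside the band, 35 were called (4.69%). The rule bounds how far the codes' ratios can differ, which is the error term of this fit, so a fit with 1 dispersion common to all IDs was set beside it. That fit called the same 2 IDs, with 4.36% of all IDs and 6.70% of the other eligible IDs called. DESeq2 gave an adjusted p for 69 of the 83 and called 0 of them, beside 35 calls among 1127 IDs in all. At an unadjusted p under 0.05 there were 15 of the 83 with edgeR, beside 150 of the 746 other eligible IDs and 467 of all 3282, and 1 of the 83 with DESeq2, beside 125 IDs in all. At the adjusted threshold, the share of near-median IDs called with edgeR was below those of all IDs and of the other eligible IDs. At an unadjusted p under 0.05 their edgeR share was above that of all IDs and below that of the other eligible IDs. The adjusted share rests on 2 calls, and no difference between the shares was tested.

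Zm00001d039104 was higher in RPI11. It had 79 counts (89.4 CPM) in RPI11 and 45 counts (33.5 CPM) in RPI10 of the hybrid, and 40 counts (99.0 CPM) in RPI11 and 12 counts (43.6 CPM) in RPI10 of B73. Both RPI11 libraries lay above both RPI10 libraries. The fitted log2 fold change of RPI11 over RPI10 was 1.31 (SE 0.31, edgeR quasi-likelihood adjusted p = 0.0162; 0.00338 with 1 common dispersion). With DESeq2 the adjusted p was 0.432, on the other side of the threshold.

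Zm00001d011454 was lower in RPI11. It had 26 counts (29.4 CPM) in RPI11 and 79 counts (58.9 CPM) in RPI10 of the hybrid, and 16 counts (39.6 CPM) in RPI11 and 30 counts (109 CPM) in RPI10 of B73. Both RPI11 libraries lay below both RPI10 libraries. The fitted log2 fold change of RPI11 over RPI10 was -1.20 (SE 0.32, edgeR quasi-likelihood adjusted p = 0.0396; 0.0143 with 1 common dispersion). With DESeq2 the adjusted p was 0.667.

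The remaining near-median IDs differed less between codes. The log2 difference of RPI11 minus RPI10 was centred on the median of the 970 IDs in each genotype and averaged over the genotypes. Over all 83 IDs it ran from -1.19 to 1.34, with the 2 called IDs at the ends, and had a median of -0.05. Its standard deviation over the 83 IDs was 0.49, beside 0.51 over the other 746 eligible IDs, 0.39 over the 81 IDs of the band centred on -1 and 0.52 over the 72 IDs of the band centred on 1. The spread between codes was thus of similar size inside and outside the near-median band, and no difference between these spreads was tested. An average beyond 1 in either direction, a 2-fold difference between codes, was found for 2 near-median IDs, those called by edgeR, and for 37 of the other 746.

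**Figure D5:**
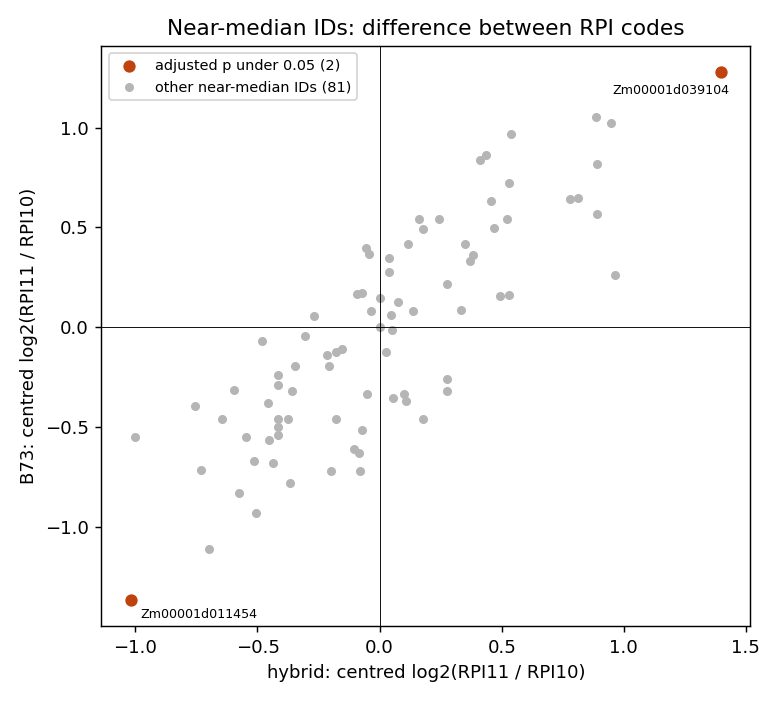
Centred log2 difference between RPI11 and RPI10 in the hybrid (horizontal) and in B73 (vertical) for each of the 83 near-median IDs, with the 2 IDs called by edgeR in red. The rule itself keeps the points near the diagonal, while their place along it, from -1.19 to 1.34 when averaged, was not set by the rule.

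Named genes that are widely used as references were looked for among the IDs deposited as symbols, which are outside the rule. Of 29 symbols listed, 9 were in the table and 7 had 10 or more counts in every library, and 1 of the 7 lay in the band in both codes. That gene was TUBA1, an alpha tubulin of the microtubules, with 97 (RPI10) and 63 (RPI11) counts in the hybrid and 25 (RPI10) and 47 (RPI11) counts in B73, and centred ratios of 0.28 and -0.21. TUBA3, another alpha tubulin, had ratios of -1.51 in RPI10 and -1.995 in RPI11, and TUBA6 had -1.43 and -0.72. GAPC2, a cytosolic glyceraldehyde-3-phosphate dehydrogenase of glycolysis, had ratios of -0.61 in RPI10 and 0.58 in RPI11, on opposite sides of the band. ADF3, an actin-depolymerizing factor, had -0.35 in RPI10 and -0.58 in RPI11. RPL17 and RPL29, both ribosomal protein genes, lay far apart, at -2.07 and -1.58 for RPL17 and 3.66 and 3.81 for RPL29. Reads of near-identical tubulin copies may have been split or shared between them, which the sources used here do not describe.

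Of all 58 symbols with 10 or more counts in every library, 4 lay in the band, 6.90% beside 10.0% of the eligible Zm00001d IDs. Besides TUBA1 these were psaC and psbB, plastid genes for subunits of photosystem I and photosystem II, and TIP2-1, an aquaporin of the vacuolar membrane. The ratios of psaC were 0.00 in RPI10 and -0.22 in RPI11, those of psbB were -0.31 and -0.15, and those of TIP2-1 were 0.32 and -0.15. Of the 50 most abundant Zm00001d IDs, which the rule left out, 49 had enough counts and 3 lay in the band.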

How the data were processed

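RNA of 4 whole-seedling libraries, 2 per genotype, was counted per gene or locus ID. The authors deposited whole-number counts, 1 column per library, and no normalized values. Per the labels' protocols, libraries followed CEL-Seq2 with molecular identifiers (10 bp) and sample barcodes (6 bp). Per the submitters' processing notes, CASAVA 1.4, HISAT2, UMI-tools and the build B73 RefGen_v4 were used. The counting tool, the annotation and whether identifiers were collapsed are not given in the sources used here. How reads of A188 alleles aligned to a B73 build was not examined.

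CPM is the count over the library total. Totals ran from 275271 to 1341976, so 1 count was worth 0.745 to 3.63 CPM. The counts were fitted with edgeR 4.0.16 in R 4.3.3 (filterByExpr by genotype, which left 3282 IDs, TMM scaling, glmQLFit and glmQLFTest, Benjamini-Hochberg over all IDs tested, threshold 0.05). The genotype fit had genotype as its only term, and the code fit had genotype and code. DESeq2 1.42.0 was an alternative, with the others listed in the closing section. With 2 libraries against 2, an exact permutation test cannot go below p = 0.333, so none was used. The fits were tested on simulated data. Binomial intervals used SciPy 1.17.1 and cover counting error only.

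Members and lists were chosen with earlier results of these data known. IDs were named by rule: the 6 most and 3 least abundant members, the 4 nearest to 0, the 2 nearest to the band edge on either side, up to 2 called between codes in each direction, and the listed reference symbols. Same-coded libraries deviated together from their genotype means (correlation 0.29 across 3282 IDs), but no label says that the codes pair the samples.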

Additional observations from a re-analysis of the deposited data

How the results depend on the processing

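The number of near-median IDs was 46 with a band of -0.3 to 0.3, 125 with -0.5 to 0.5 and 29 with a minimum of 20 counts in every library. It ran from 184 to 192 when only 1 code was used. TMM gave 88, library totals 78, the centre of the eligible IDs alone (added after seeing the data) 85, keeping the 50 most abundant IDs 86 and drawing all libraries to the smallest total 64, all within 1.5 times of 83. The IDs changed more than their number: 49 of the 83 were shared with TMM, 11 with library totals, 57 with the centre of the eligible IDs, 4 with the minimum of 20 counts (26 of the 83 had 20 counts) and 3 with drawn libraries (32 of the 83 had 10 counts then). The share picked in RPI10 and also inside in RPI11 was 33.1% with -0.3 to 0.3, 54.7% with at least 20 counts and 53.8% with drawn libraries, beside 16.04%, 20.98% and 30.2% of all eligible IDs. Picked in RPI11 it was 34.6% with -0.3 to 0.3, 51.7% with -0.5 to 0.5 and 57.1% with drawn libraries, beside 16.8%, 29.7% and 32.1%.

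Of the near-median IDs, edgeR called 2 between codes. The number was 0 at a threshold of 0.01, 0 with DESeq2, 0 without a genotype term (0 at an unadjusted p under 0.05) and 0 with at least 10 counts in all libraries (15 at an unadjusted p under 0.05). It was 1 without a filter (Zm00001d039104), beside 74 of 22374 IDs in all, and 1 with drawn libraries (Zm00001d046767, lower in RPI11, edgeR adjusted p = 0.0434), beside 88 of 1440. Over all IDs the 108 calls became 55 at 0.01, 35 with DESeq2, 0 without a genotype term and 0 with at least 10 counts in all libraries, where 9 and 196 had an unadjusted p under 0.05. The log2 fold changes of the 2 named IDs were computed in 4 alternatives (DESeq2 size factors, library totals, 1 common dispersion and DESeq2) and kept their sign in each, and both missed the threshold with DESeq2. Leaving out a library would leave the code fit without residual degrees of freedom, so it was not run.

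Between the hybrid and B73, 0 near-median IDs were called with the replicate block and without each library in turn, where the lone library is assumed to vary like the others. The number was 1 with library totals (Zm00001d015138) and 1 with drawn libraries (Zm00001d048449). The rule used this contrast, so nothing is read from these calls. Of all IDs, 1662 were called, 829 higher and 833 lower in the hybrid. DESeq2 called 757 of 4162 IDs, 551 higher and 206 lower in the hybrid. Fewer IDs were tested with drawn libraries, which gave 747 of 1440, and with at least 10 counts in all libraries, which gave 426 of 970. Library totals alone gave 482 higher and 1357 lower. The replicate block gave 1870. Leaving out each library gave from 1053 (without B73 RPI11) to 1669. Why DESeq2 called fewer IDs was not tested.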
